A study of Mus musculus with 2 samples.

Results

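Forkhead genes encode transcription factors that bind DNA through a shared winged-helix domain and are grouped by letter, from FoxA to FoxS, according to the similarity of that domain. In the embryo, FoxC factors act in endothelium, cardiac neural crest and the second heart field, FoxF and FoxL1 factors act in the mesenchyme of gut and lung under Hedgehog signals, FoxO factors are held out of the nucleus by insulin and AKT signalling, and FoxM1 drives mitotic genes. FoxP factors are repressors that act as dimers, and Foxp1 is needed for normal outflow tract septation and myocardial growth.

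Members were all nuclear protein-coding genes whose symbol in the GENCODE M21 annotation is Fox, a letter from a to s and a number. The rule found 44 genes among 21461 nuclear protein-coding genes, and all 44 had a row in each table. They were measured by total RNA-seq in 2 libraries of embryonic hearts of strain B6NCrl at age 12.5 days, from pooled male and female embryos described as healthy. The libraries are labelled biological replicates 1 and 2, carry the same donor label, and form 1 group, so there is no contrast of conditions and no p-value. RNA above 200 nt was used, with 10 ng as input and ERCC spike-ins, and nothing says how many embryos were pooled.

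The deposited tables held 33480066 reads on genes in replicate 1 and 30665239 in replicate 2, so that 3 reads correspond to 0.0896 and 0.0978 CPM. All 8 cardiomyocyte markers reached at least 1 TPM (a level scaled by transcript length) in each library, which is called detected here, with a median of 2298 TPM, and all 10 endothelial, 7 epicardial and 7 cushion and fibroblast markers were detected too. The libraries differed in genes listed as markers of other organs, and the origin of this RNA was not tested. The summed level of 11 liver markers was 200 TPM in replicate 1 and 43.7 TPM in replicate 2, with 10 of 10 tested genes lower in replicate 2, while 3 of 6 tested foregut and lung endoderm markers were higher and 2 lower.

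The helix of the forkhead domain that lies in the major groove of DNA is nearly invariant, and its coding bases and residues were compared among the members. A fixed pattern of residues was searched for in GENCODE M21 transcripts on GRCm38, so part of the likeness among residues follows from the search. A stretch of 33 coding bases in this helix, 11 codons long, was found this way in 43 of the 44 genes, all except Foxr1. It is shown for 8 of the genes discussed most, 5′ to 3′ in the coding direction, with capitals where a base differs from Foxc2.
Foxc2: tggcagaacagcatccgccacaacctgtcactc
Foxc1: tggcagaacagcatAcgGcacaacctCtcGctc
Foxk1: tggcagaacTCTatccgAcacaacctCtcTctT
Foxm1: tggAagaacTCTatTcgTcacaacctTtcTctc
Foxj3: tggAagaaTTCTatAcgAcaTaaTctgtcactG
Foxf1: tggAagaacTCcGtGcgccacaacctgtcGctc
Foxn3: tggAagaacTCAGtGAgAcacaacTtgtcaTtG
Foxp4: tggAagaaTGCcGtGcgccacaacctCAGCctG

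The stretch lies at chr8:121116957-121116989 in Foxc2, chr13:31807571-31807603 in Foxc1, chr8:121084672-121084704 in Foxf1 and chr12:99388400-99388432 in Foxn3, each time within 1 coding exon. In Foxp4 it is spliced together from within chr17:47871325-47874640 and in Foxj3 from within chr4:119573795-119585776. Foxc1 differed from Foxc2 at 4 of 33 bases and encoded the same residues. Foxf1 differed at 6 bases, Foxm1 at 8, Foxj3 at 10, and Foxn3 and Foxp4 at 11 each. The 43 stretches came in 40 versions of bases but only 11 of residues. The most common version was shared by 16 genes, of which 4 were detected (Foxc1, Foxc2, Foxk1 and Foxk2). A second was shared by 7 genes, of which 6 were detected (Foxj2, Foxj3, Foxm1, Foxo1, Foxo3 and Foxo4), and Foxf1 and Foxf2 encoded the same stretch as Foxn1, Foxn2, Foxn3 and Foxn4.

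TPM allows levels of different genes to be compared. A member counted as detected when each library gave at least 1 TPM, and as not detected when each gave under 0.1 TPM. By this rule 15 forkhead genes were detected, which is 34.1% of the family, against 57.5% of all nuclear protein-coding genes. A further 18 were not detected, 40.9% against 26.8% of all nuclear protein-coding genes, and 11 lay between the bounds. The median level over all 44 members was 0.17 TPM (0.21 in replicate 1 and 0.135 in replicate 2) beside 3.64 TPM over all protein-coding genes. Among detected genes alone the forkhead median was 10.0 TPM and that of all protein-coding genes 18.9 TPM. By the same rule 11 of 19 Sox genes, 6 of 17 T-box genes and 6 of 6 GATA genes were detected. The 57.5% is also the background for counts of detected genes in the gene lists named below.

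**Figure D1:**
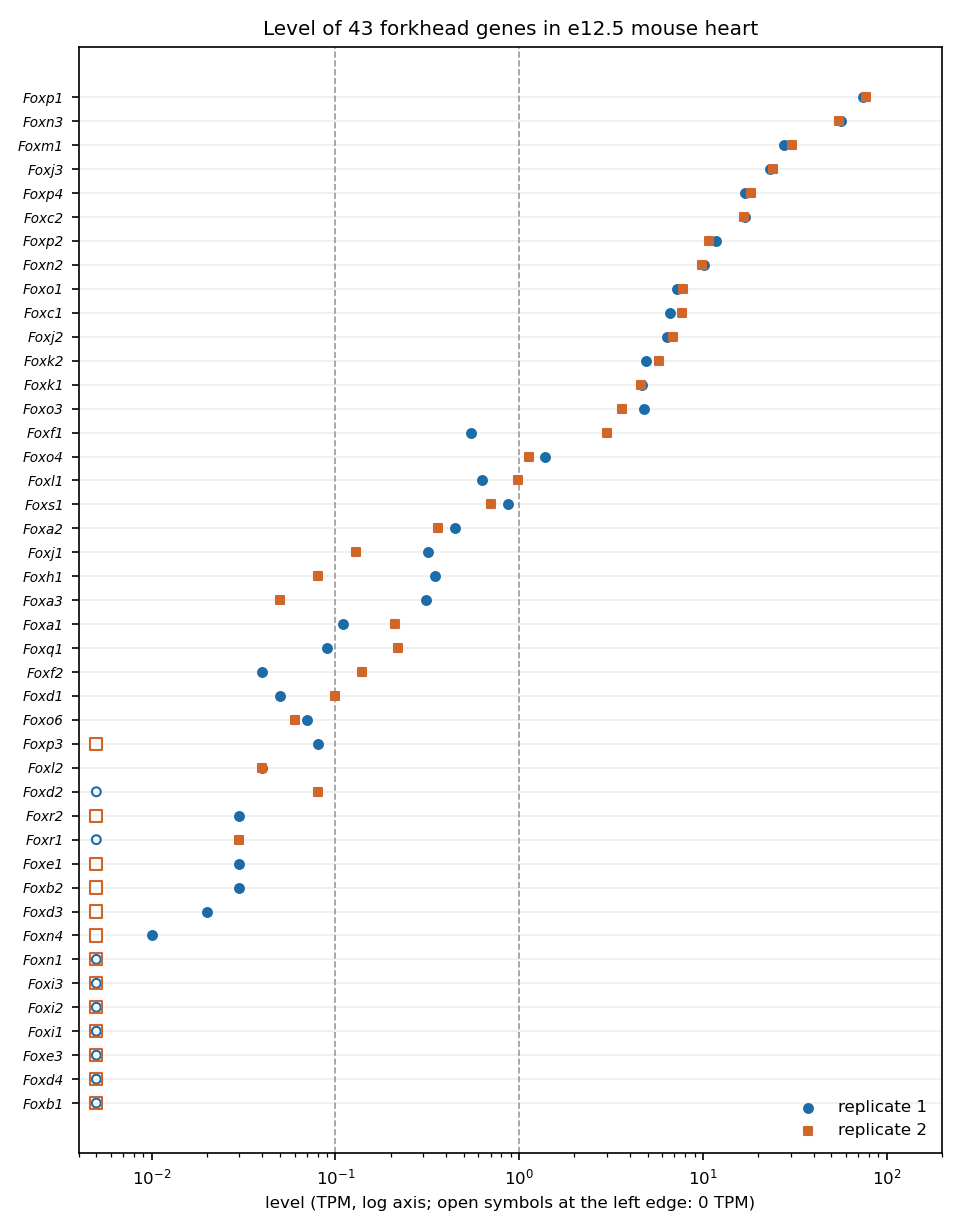
Level of 43 of the 44 forkhead genes in TPM on a log axis, with circles for replicate 1, squares for replicate 2 and open symbols at the left edge for 0 TPM. Dashed lines mark 0.1 and 1 TPM. The 15 detected genes span from 1.25 to 75.7 TPM on average, and Foxf1 is the member with the widest gap between libraries among those above 1 TPM in either.

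Summed over the family, forkhead RNA came to 278 TPM in replicate 1 and 286 TPM in replicate 2. The FoxP subfamily held 37.1% ± 0.182 (SD, n = 2) of this sum, FoxN 23.4% ± 0.875, FoxJ 10.8% ± 0.0974 and FoxM 10.3% ± 0.537. FoxC held 8.52% ± 0.0426, FoxO 4.62% ± 0.290 and FoxK 3.52% ± 0.120. The other 12 subfamilies had no detected member, and the largest of their shares was that of FoxF, 0.213% in replicate 1 and 1.10% in replicate 2. In heart tissue, therefore, nearly all forkhead RNA came from subfamilies P, N, J, M, C, O and K.

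**Figure D2:**
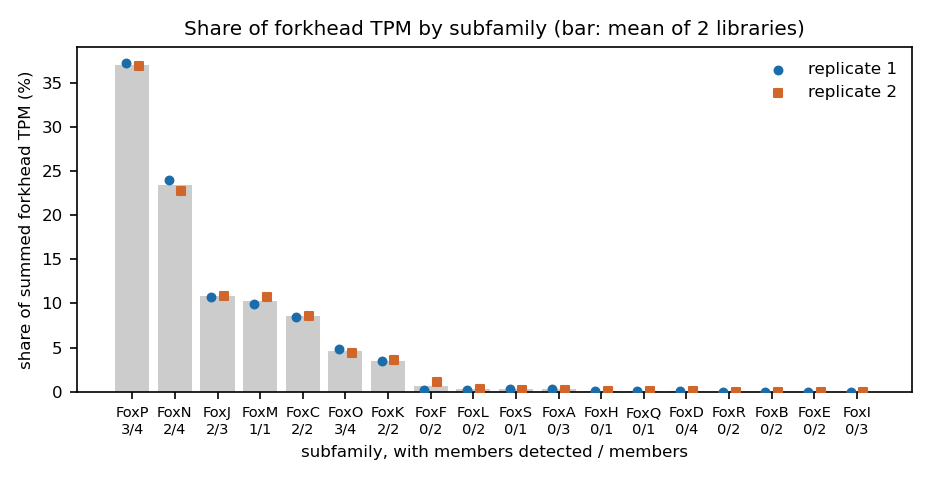
Share of the summed forkhead TPM held by 18 of the 19 subfamilies in percent, with the bar at the mean of both libraries and a point per library. The label under each bar gives detected members over all members, and FoxP and FoxN are the tallest bars.

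Foxp1, at chr6 on the minus strand, was the highest forkhead gene by TPM, with 74.68 TPM in replicate 1 and 76.77 TPM in replicate 2, which placed it above 91.3% of protein-coding genes. Foxp4, a paralog that can pair with Foxp1, had 16.85 and 18.25 TPM. Foxp2, known best for its role in brain circuits and also present in lung epithelium, had 11.71 and 10.84 TPM. Thus all 3 were plainly present and did not overlap. Foxp1 exceeded Foxp4 4.32-fold ± 0.159 (SD, n = 2) in TPM, and Foxp4 exceeded Foxp2 1.56-fold ± 0.173. Foxp3, the factor of regulatory T cells, had 6.97 reads in replicate 1 and 0 in replicate 2. The file gives a posterior SD of 1.43 reads for Foxp3 in replicate 1, and 2 noncoding genes, Flicr and Gm36995, overlap Foxp3. Of 5 T cell markers, Cd3d, Cd3e, Ctla4 and Il2ra were at 0 in both libraries.

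Of the corepressors that FoxP factors recruit, chiefly the NuRD complex and CtBP, RNA of 10 of 10 listed genes was detected. Their median was 90.6 TPM. Rbbp7 (343 TPM on average) and Rbbp4 (278 TPM), which are histone-binding subunits, were highest, and Mta1 (9.28 TPM) and Gatad2b (6.78 TPM) lowest. Between the libraries, reads of Rbbp7, Rbbp4, Ctbp1 and Hdac2 were lower in replicate 2, in each case by less than 10%.

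Foxn3, a checkpoint repressor of cell-cycle genes, followed with 56.51 TPM in replicate 1 and 55.28 TPM in replicate 2. Its paralog Foxn2 had 10.12 and 9.93 TPM, so Foxn3 was 5.58-fold ± 0.0120 higher in TPM. The other FoxN genes were not detected. Foxn1, the thymic epithelium factor, had 0 reads in both libraries, and Foxn4, a retinal and spinal cord factor, had 1 read and 0 reads.

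The place of Foxp1 and Foxn3 at the top depended on transcript lengths. Foxn3 had 9 listed transcripts, and Foxn3-205, a 3-exon fragment of 566 nt, held 33.8% of its TPM in replicate 1 from 211 of 2178 reads, and 29.0% in replicate 2. Foxn3-201, which has 6 exons and 2803 nt, held 30.3% and 31.4%. In an alternative chosen after seeing the data, RPKM was computed here from reads on genes and the length of each gene's longest protein-coding transcript. Foxn3 then led with 22.6 and 24.2 RPKM, ahead of Foxp1 with 17.8 and 19.3 RPKM. Foxm1 stayed in the third place and Foxj3 in the fourth. On this scale the log2 ratio of Foxp1 over Foxp4 was 1.15 where TPM gave 2.10, that of Foxn3 over Foxn2 was 1.83 where TPM gave 2.47, and no within-subfamily order turned.

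Foxp1 had 32 listed transcripts, and Foxp1-225, with 15 exons and 1848 nt, held 43.7% of its TPM in replicate 1 and 40.6% in replicate 2. By reads Foxp1-225 did not lead, with 1350 and 1166 reads. Foxp1-204, of 7177 nt and not near a RefSeq start, had 1494 and 1901 reads. No other Foxp1 transcript reached 20% of TPM in either library. RefSeq places 3 starts in Foxp1. Transcripts that begin within 500 bp of the start nearest the 3′ end of the gene held 46.2% ± 2.04 (SD, n = 2) of Foxp1 TPM. Those near the middle start held 6.19% ± 0.868, those near the outermost start 1.99% ± 0.0730, and the remaining 45.6% ± 2.84 belonged to transcripts that begin elsewhere or are incomplete. So among the 3 RefSeq starts the innermost carried the most Foxp1 TPM as the files divide it, a share that depends on the length of Foxp1-225. The promoter of the innermost start is shown, because most Foxp1 TPM assigned to a RefSeq start came from it. It is RefSeq sequence of build GRCm38.p6 at chr6:99028249-99028548, minus strand, in lower case throughout because none of the motifs searched for occurred.
Foxp1: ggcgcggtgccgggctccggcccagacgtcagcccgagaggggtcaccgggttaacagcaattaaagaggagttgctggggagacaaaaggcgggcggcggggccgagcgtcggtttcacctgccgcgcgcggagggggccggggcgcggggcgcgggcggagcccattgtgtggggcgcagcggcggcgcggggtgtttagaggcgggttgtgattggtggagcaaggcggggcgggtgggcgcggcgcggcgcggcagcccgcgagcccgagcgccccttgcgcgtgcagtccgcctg

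This window has a GC content of 75.3% and 44 CpG dinucleotides, whereas the middle Foxp1 promoter has 48.7% and 5 CpGs and the outermost 60.3% and 13 CpGs. RefSeq promoters, 300 bases each, were found for 28 of the 44 genes, 33 windows in all. Their median was 62.7% GC and 22 CpGs, beside 52.7% and 7 CpGs over all 32851 promoters. The 11 windows of 9 detected members had a median of 33 CpGs and the 15 windows of 14 members that were not detected a median of 10. The motifs searched on both strands were the forkhead core GTAAACA, the GLI site TGGGTGGTC and the cell-cycle element TTTGAA. They occurred in 1, 0 and 3 of the 33 forkhead windows, against 3.65%, 0.253% and 17.9% of all promoters.

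Foxm1, the mitotic forkhead factor, had 27.62 TPM in replicate 1 and 30.67 TPM in replicate 2. All 22 listed genes of the MuvB complex and of the G2 and M phases were detected, with a median of 69.8 TPM. Cks1b, a subunit of cyclin-dependent kinases, was highest with 290 TPM and Lin52 (12.7 TPM) and Lin54 (11.9 TPM), both MuvB subunits, lowest. Rbbp4, Top2a and Lin37 were lower in replicate 2, and Cenpa, Plk1 and Kif20a higher.

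The FoxJ subfamily was led by Foxj3, a muscle fibre and mitochondrial regulator, with 23.10 and 24.17 TPM. Foxj2 had 6.41 and 6.87 TPM, and Foxj3 exceeded it 3.56-fold ± 0.0605 in TPM. Foxj1, the master factor of motile cilia, stood apart from both with 19 reads (0.32 TPM) in replicate 1 and 7 reads (0.13 TPM) in replicate 2. Of 18 motile cilia genes listed, 7 were detected and 7 were not, with a median of 0.27 TPM. Cfap43 (20.4 TPM) and Rfx3 (5.91 TPM) were highest, Dnah5 was at 0.01 TPM, and Gmnc, an upstream inducer of multiciliated cells, had 0 reads. Cfap43 and Ccdc39, a dynein-docking gene with 35.4 and 13.8 reads, were lower in replicate 2.

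Both FoxC genes were detected. Foxc2 had 16.99 TPM in replicate 1 and 16.81 TPM in replicate 2, and Foxc1 had 6.59 and 7.69 TPM. Foxc2 was thus 2.38-fold ± 0.277 (SD, n = 2) higher in TPM, with no overlap of the libraries. Of 10 listed FoxC target genes of vessels and the second heart field, 6 were detected, near the 57.5% of all nuclear protein-coding genes. The median over all 10 was 4.95 TPM. Nrp1, a VEGF and semaphorin coreceptor, was highest with 69.6 TPM, and Hey2, a Notch target, had 38.9 TPM. Tbx1 had 5 and 18 reads, and Fgf8, an outflow tract growth factor, had 0 reads in both libraries. Hey2, Notch1, Itgb3 and Fgf10 were higher in replicate 2. In bulk tissue, fewer cells of a type and less RNA per cell cannot be told apart.

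Among FoxO genes, Foxo1, essential for embryonic vessels, was highest with 7.19 and 7.83 TPM. Foxo3, a stress and quiescence factor, had 4.76 TPM in replicate 1 and 3.63 TPM in replicate 2. Foxo4 had 1.38 and 1.13 TPM, the lowest of the detected members. Foxo6, a brain isoform, was not detected with 4 and 3 reads. Foxo1 exceeded Foxo3 1.83-fold ± 0.457 and Foxo3 exceeded Foxo4 3.33-fold ± 0.168 in TPM. An antisense gene, Gm20402, at chr3:52268435-52269435, overlaps Foxo1 and was listed at 6.53 and 8.08 TPM. No source used here gives the strand handling, and reads of Foxo1 and Gm20402 in the shared bases cannot be told apart.

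Upstream of FoxO proteins, 20 genes were listed, most of them from the insulin, PI3K and AKT route. RNA of all 20 was detected, beside 57.5% of all nuclear protein-coding genes, with a median of 17.0 TPM. Whether the route acted on FoxO proteins was not tested. Ywhaz (548 TPM), a 14-3-3 protein that holds FoxO in the cytoplasm, and Akt1 (148 TPM) were highest, and Sirt1 (3.86 TPM) and Pik3cb (2.30 TPM) lowest. Of 20 listed FoxO targets 16 were detected, with a median of 15.6 TPM. Txnip (119 TPM) and Sod2 (93.5 TPM) were highest, while Pck1 had 10 and 4 reads and G6pc, the liver glucose-6-phosphatase, had 0. In the upstream list Ywhaz, Pdpk1, Stk4, Pik3r1 and Irs2 were among the genes higher in replicate 2, and none was lower. In the target list Txnip, Klf2, Bcl2l11 and Irs2 were higher and Trim63 and Sesn3 lower.

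The FoxK genes, repressors of autophagy that load the BAP1 complex onto DNA, were close to each other. Foxk2 had 4.87 TPM in replicate 1 and 5.74 TPM in replicate 2, and Foxk1 had 4.67 and 4.59 TPM. Foxk2 exceeded Foxk1 1.15-fold ± 0.147, the smallest ratio of the 8 within-subfamily pairs compared. Across all 8 pairs the libraries of the higher gene lay above those of the lower. All 10 listed FoxK partners were detected, with a median of 25.1 TPM. The SIN3 scaffold Sin3b (119 TPM) and the sugar transferase Ogt (99.8 TPM) were highest, and Asxl1 (11.7 TPM) and Dvl1 (7.95 TPM) lowest. Ogt, Hcfc1, Dvl3 and Asxl2 were higher in replicate 2 and Sin3b lower.

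Ordered by mean TPM, the 15 detected genes ran Foxp1, Foxn3, Foxm1, Foxj3, Foxp4, Foxc2, Foxp2, Foxn2, Foxo1, Foxc1, Foxj2, Foxk2, Foxk1, Foxo3 and Foxo4. Of the 14 neighbouring pairs in this order, 10 were apart in both libraries. The 4 pairs whose libraries overlapped were Foxp4 with Foxc2, Foxo1 with Foxc1, Foxc1 with Foxj2, and Foxk1 with Foxo3.

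Detected members also differed from the rest in gene structure. The 33-base stretch was interrupted by an intron in 11 of the 15 detected members (all except Foxc1, Foxc2, Foxn2 and Foxn3). It was interrupted in 1 of the 11 members between the bounds (Foxj1) and in 2 of the 17 members that were not detected and could be read (Foxo6 and Foxp3). Coding transcripts had at most 1 exon in 2 of 15 detected members (Foxc1 and Foxc2), in 4 of 11 between the bounds and in 7 of 18 that were not detected. Both features largely followed subfamily. The interrupted stretches were those of the FoxJ, FoxK, FoxM, FoxO and FoxP members. The members with at most 1 exon were Foxb2 and all those of FoxC, FoxD, FoxE, FoxL, FoxQ and FoxS, while Foxb1 had 2 exons.

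Not every transcript of a detected member held the stretch. In Foxc1, Foxc2, Foxj2, Foxk1 and Foxo1 all TPM lay in transcripts that did. In Foxp4 the share was 75.8% in replicate 1 and 73.2% in replicate 2, in Foxp1 it was 72.2% and 71.2%, and in Foxp2 it was 54.0% and 57.0%. By reads the shares were higher, 95.3% and 94.6% for Foxp4, 90.3% ± 0.319 (SD, n = 2) for Foxp1 and 78.5% ± 0.569 for Foxp2. The transcripts without it included Foxp4-206, a retained-intron transcript of 579 nt with 11.9% ± 3.11 of Foxp4 TPM, and Foxp1-218 of 607 nt with 7.01% ± 1.65. In Foxp2 they included Foxp2-203, a coding transcript of 2692 nt with 13.6% ± 2.20. Counting only transcripts with the stretch, Foxp1 came to 53.9 and 54.7 TPM, Foxn3 to 49.3 and 49.7 TPM and Foxp2 to 6.32 and 6.17 TPM, which moved Foxp2 from the seventh to the eleventh place.

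**Figure D3:**
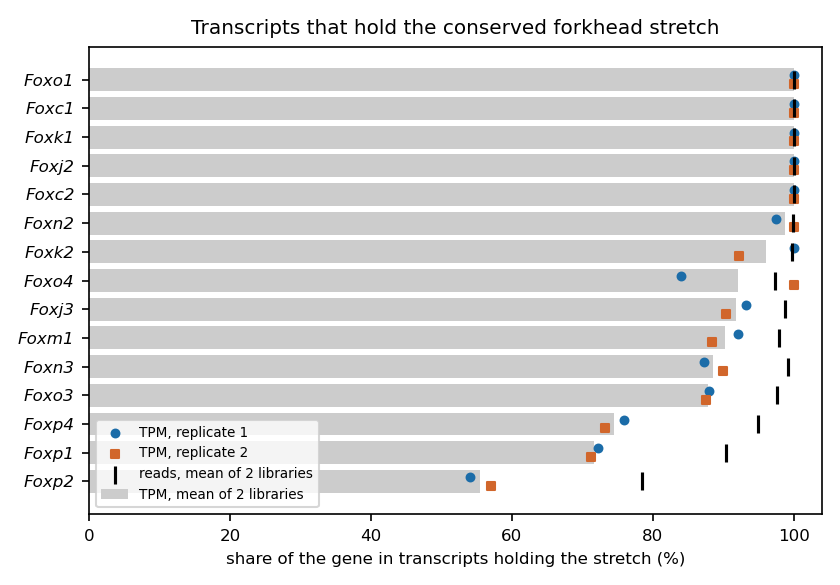
Share of each detected forkhead gene, in percent, that lies in transcripts holding the 33-base conserved stretch. Bars give the mean TPM share of both libraries, points the share per library and black ticks the mean share of reads. Foxp2, Foxp1 and Foxp4 have the lowest TPM shares, 55.5%, 71.7% and 74.5%.

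Transcript types other than protein-coding, retained introns among them, held 25.5% ± 1.87 of Foxp4 TPM, 23.8% ± 4.84 of Foxm1, 20.2% ± 2.65 of Foxp2 and 15.4% ± 0.424 of Foxp1. Of 11 detected members with several transcripts, 10 had the same leading transcript in both libraries, against 92.1% of all protein-coding genes. The exception was Foxn3, led by Foxn3-205 in replicate 1 and by Foxn3-201 in replicate 2. Other shares differed more between the libraries. Foxj2-202 held 0% and 25.2% of Foxj2 TPM, and Foxp4-201 held 7.89% and 22.7% of Foxp4 TPM. The assignment of these reads was uncertain. Foxj2-202 had 0 and 167 reads with posterior SDs of 35.5 and 59.8 reads. Foxp4-201 had 97.2 and 274 reads with posterior SDs of 52.0 and 62.2 reads. Foxp4-202, which is 1 nt longer than Foxp4-201 in the files, held 31.0% and 23.4%, and Foxp4-204 held 36.9% and 27.1%.

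Of the 11 members between the bounds, Foxf1 was the only one whose libraries stood on either side of 1 TPM. It had 30 reads (0.55 TPM) in replicate 1 and 149 reads (3.01 TPM) in replicate 2. Scaled by reads on genes, Foxf1 was 5.42-fold higher in replicate 2, with an exact 95% interval from 3.64 to 8.32 that covers counting error only, as do all intervals here. Its paralog Foxf2 had 2 and 7 reads. Foxl1, which is 9.04 kb from Foxc2 in the same chromosome 8 cluster, had 39 and 54.5 reads (0.63 and 0.98 TPM), a ratio of 1.54 with an interval from 1.00 to 2.38. Foxc2 lies 28.0 kb from Foxf1, between Foxf1 and Foxl1, and its ratio was 0.977 with an interval from 0.894 to 1.07. Foxc2, next to Foxf1, was thus at the same level in both libraries within counting error.

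Fendrr, a noncoding RNA transcribed away from Foxf1 and needed in lateral mesoderm, starts 1276 bp from the Foxf1 start. It had 2 reads (0.04 TPM) in replicate 1 and 22 reads (0.71 TPM) in replicate 2, a ratio of 12.0 with an interval from 2.95 to 105. With a mean under 20 reads, Fendrr was not among the genes compared between libraries by the rule used for the members. The RefSeq promoter of Fendrr is shown because Foxf1 and Fendrr were both higher in the same library. It lies at chr8:121083061-121083360, minus strand, build GRCm38.p6, and capitals mark a match to the forkhead core.
Fendrr: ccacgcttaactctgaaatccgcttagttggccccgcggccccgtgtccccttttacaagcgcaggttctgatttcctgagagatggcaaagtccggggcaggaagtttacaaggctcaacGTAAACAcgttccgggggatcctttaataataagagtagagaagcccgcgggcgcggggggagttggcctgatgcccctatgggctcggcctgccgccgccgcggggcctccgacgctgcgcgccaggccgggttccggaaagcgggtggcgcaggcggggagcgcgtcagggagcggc

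Of the 6 foregut and lung endoderm markers tested, 3 were higher in the same library as Foxf1 and 2 were lower, among them Cdh1 (117 and 65 reads). Nkx2-1, the lung and thyroid endoderm factor, had 5 reads in replicate 1 and 49 in replicate 2, and Sftpc, a surfactant gene, had 0 and 14. The lung mesenchyme markers Tbx4 (27 and 47 reads), Hoxa5 (33 and 54) and Fgf10 (30 and 45) were higher in replicate 2. Wnt2 (273 and 248), Tbx5 (2596 and 2402) and Gli1 (17 and 26) were not called different. Fgf10 is also on the list of genes that FoxC factors act on in the second heart field. Summed over 6 lung mesenchyme markers the levels were 36.0 and 38.2 TPM, and over 9 foregut and lung endoderm markers 10.8 and 12.9 TPM, none at 0 in both libraries. The lung mesenchyme sum came mostly from its highest marker, at 28.9 TPM on average, while the median of the 6 was 0.84 TPM. Tbx5 had the most reads of the 6. The smooth muscle gene Myh11 had 90 and 190 reads. The part of lung and foregut RNA in the Foxf1 difference was not tested.

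The Hedgehog pathway, which acts upstream of FoxF and FoxC genes, had 9 of 13 listed genes detected, beside 57.5% of all nuclear protein-coding genes. The median of the 13 was 4.47 TPM. The coreceptor Gas1 (45.6 TPM) and the transducer Smo (19.9 TPM) were highest. The ligand Shh had 4.57 and 14.2 reads and Ihh 3 and 6 reads, so the detected ligand was Dhh with 4.67 and 4.90 TPM. The target genes Hhip (24 and 58 reads) and Ptch1 (638 and 688 reads) and the coreceptor Boc (667 and 702 reads) were higher in replicate 2.

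**Figure D4:**
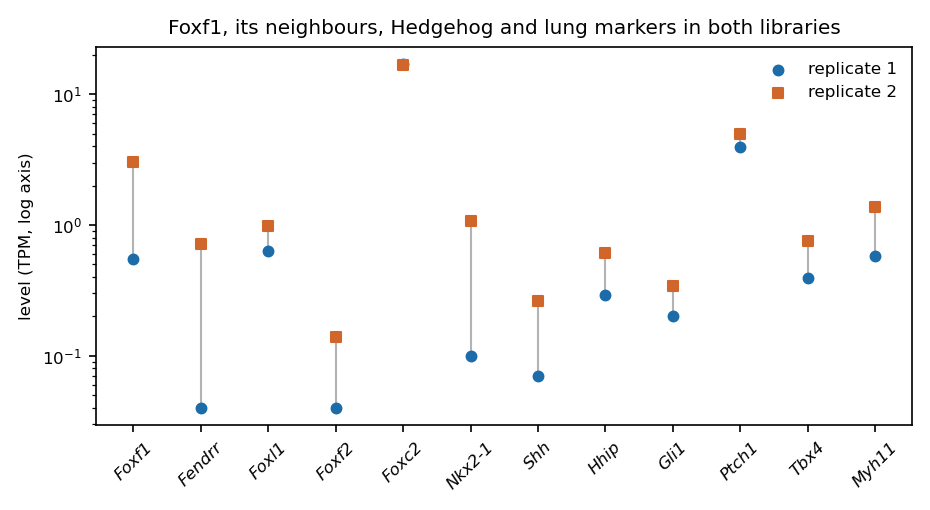
Levels in TPM on a log axis in replicate 1 (circles) and replicate 2 (squares) for Foxf1 and its neighbours Fendrr, Foxc2 and Foxl1, for Foxf2, and for Hedgehog, lung and smooth muscle genes. The lung genes drawn, Nkx2-1 and Tbx4, had more reads in replicate 2. Among the lung and foregut markers not drawn, Cdh1 was lower there, and Wnt2 and Tbx5 were not called different. Foxf1 runs from 0.55 to 3.01 TPM while Foxc2 stays near 17 TPM.

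The FoxA genes, pioneer factors of endoderm, were low in both libraries. Foxa2 had 14 and 12 reads (0.45 and 0.36 TPM) and Foxa1 had 8 and 14 (0.11 and 0.21 TPM). Foxa3, a FoxA gene of liver and gut, had 14 reads in replicate 1 and 2 in replicate 2 (0.31 and 0.05 TPM), a ratio of 0.156 with an interval from 0.0172 to 0.679. Foxa3 too was under the minimum mean of 20 reads. The liver marker Afp, with 4662 and 774 reads, was lower in the same library, and the part of liver RNA in the Foxa3 values was not tested.

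Foxs1, a gene of pericytes and neural crest derivatives, had 25 and 18 reads (0.87 and 0.70 TPM). Foxq1 had 5.67 and 11.9 reads and Foxd1, a marker of renal and other stroma, had 3 and 5. Foxh1, which carries Nodal signals to DNA with Smad2, had 10 reads (0.35 TPM) and 2 reads (0.08 TPM). Of 12 listed genes of the Nodal pathway 7 were detected, near the 57.5% of all nuclear protein-coding genes. Smad2 was highest with 41.9 TPM, whereas the ligand Nodal had 0 and 2 reads and its coreceptor Tdgf1 1 read in each library. Acvr2b and Smad3 were among the genes lower in replicate 2.

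The members that were not detected came mostly from FoxB, FoxD, FoxE, FoxI, FoxL, FoxN, FoxO, FoxP and FoxR. Foxb1, Foxd4, Foxe3, Foxi1, Foxi2, Foxi3 and Foxn1 had 0 reads in both libraries, which allows up to 3 reads in each. Foxd2 had 0 and 4 reads, and Foxl2, the ovarian factor, had 1 in each. Foxe1, the thyroid factor, and Foxr2 had 2 reads in replicate 1 and none in replicate 2. Foxb2 and Foxd3, a neural crest factor, had 1 read in replicate 1 only, and Foxr1 had 1 read in replicate 2 only. All 18 lie under 0.1 TPM in both libraries by the rule that defined them.

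Noncoding genes near the members mostly did not reach 1 TPM in both libraries. The share of all noncoding genes that reach it was not computed, so the count below cannot be set against a background. Within 10 kb of a member lay 27 noncoding genes beside 20 of the 44 members, and 2 of the 27 were detected. They were Gm20402 in Foxo1 and Gm26770, at 1.06 and 1.20 TPM, whose start is 6963 bp from that of Foxm1.

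Reads could be compared between the libraries for the 18 members with a mean of 20 reads or more. A difference was called where the interval of the ratio, scaled by reads on genes, left out 1. Higher in replicate 2 were 5 members, Foxf1, Foxl1, Foxc1, Foxp1 and Foxn3, against 12.4% of all tested protein-coding genes. Lower was 1, Foxo3, against 11.1%. Foxo3 had 684 and 470 reads, a ratio of 0.750 with an interval from 0.666 to 0.845. Foxc1 was 1.15-fold higher (1.03 to 1.29), Foxp1 1.08-fold (1.04 to 1.13) and Foxn3 1.07-fold (1.01 to 1.14). For Foxn3 the TPM was lower in replicate 2 although the reads were higher. Only Foxf1 among the 18 tested differed by 2-fold or more, against 1.07% of all tested genes. Foxl1 lost its call when libraries were scaled with TMM or DESeq2 factors or when posterior mean counts were used, and the other 5 kept theirs under these settings. These ratios compare 2 libraries and not conditions.

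**Figure D5:**
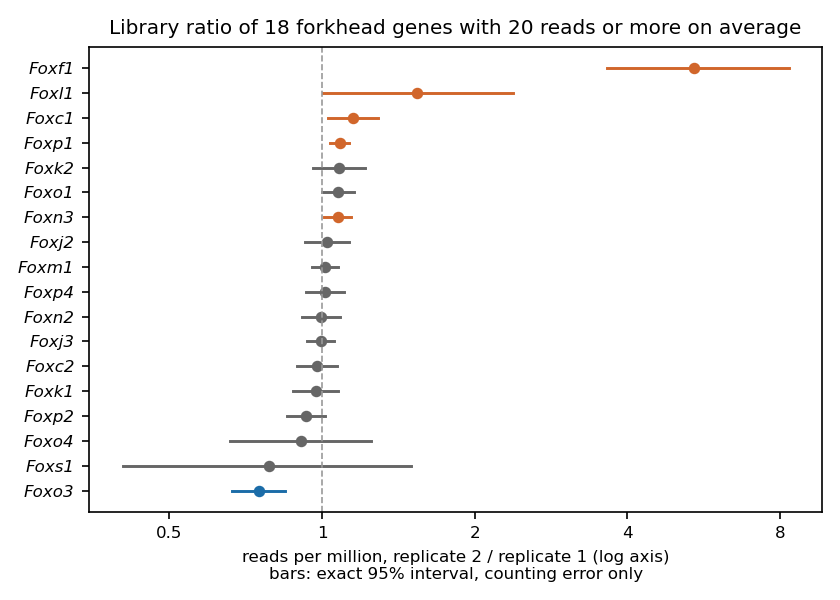
Ratio of reads scaled by reads on genes, replicate 2 over replicate 1, on a log axis for the 18 forkhead genes with a mean of 20 reads or more, with exact 95% intervals that cover counting error only. Orange marks genes higher in replicate 2, blue those lower and grey the rest, and Foxf1 lies far to the right of the others at 5.42.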

How the data were processed

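Per the file headers, the authors mapped reads to mm10 with the GENCODE M4 annotation. No source used here names the aligner, the quantifier or the strand setting. The deposited expected counts are estimated reads per gene or transcript, not always whole, and were rounded where a ratio was computed. TPM as deposited divides reads by length and by the summed level of all listed features, and the deposited FPKM values are scaled by length and library size. The deposited percent values give a transcript's share of its gene and were recomputed here from TPM.

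Of 43346 Ensembl genes, 42462 matched GENCODE M21 by identifier. Levels are the mean ± SD of 2 libraries. Library ratios used rounded counts over reads on genes, with the exact Clopper-Pearson interval at 95%. Differences were called for genes with a mean of 20 reads or more. In reads simulated with counting error only, the rule called 4.46% of unchanged genes. In the 2 libraries it called 11.1% of tested genes lower and 12.4% higher, so the simulation lacks other variation between libraries. Intervals given for Fendrr and Foxa3, under the minimum of 20 reads, carry no call. Ratios of members add 0.1 TPM only on the log2 scale. Python 3.11.15, scipy 1.17.1, edgeR 4.0.16 and DESeq2 1.42.0 (scaling factors only) were used. Alternatives changed thresholds, units, scaling, pseudocount and libraries.

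The members and all gene lists were chosen with earlier results of these data known. Genes named are all members, the highest 2 and lowest 2 of each pathway list and those called different between libraries, transcripts with 20% of a member in a library, and noncoding genes within 10 kb at 1 TPM. Transcripts that hold or lack the stretch were named after their values were seen, and so were the members singled out among lists and markers beyond this rule. A few genes and sequences are not reported here.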

Additional observations from a re-analysis of the deposited data

How the results depend on the processing

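The number of detected forkhead genes was 15 and ran from 14 (2 TPM in both libraries, or 1 FPKM) to 18 (0.5 TPM), and was 16 without replicate 1 and 15 without replicate 2. The number not detected was 18 and ran from 14 (bound 0.05 TPM) to 21 (without replicate 2). The median level was 0.17 TPM, 0.23 TPM with posterior means and 10.025 TPM over detected members only, and ran from 0.135 to 0.21 TPM when a library was left out. Posterior means lift genes with few reads, and the detected members leave out the low genes by construction. The number of members with different reads was 6 and ran from 4 (minimum of 100 reads, which leaves out Foxf1 and Foxl1) to 9 (no minimum, which adds Foxa3, Foxj1 and Foxp3). The same leading transcript was found in 10 members, or in 7 at 5 TPM or more. Of 35 alternatives for subfamily shares 2 moved beyond the SD. For within-subfamily log2 ratios 9 alternatives moved and 31 did not, and for levels of members 21 moved and 83 did not. Rescaling TPM over nuclear protein-coding genes raised Foxp1 from 75.7 to 94.9 TPM and Foxn3 from 55.9 to 70.1 TPM. No within-subfamily ratio turned its direction under any alternative tried. No paired analysis was possible because there is only 1 group. With 2 libraries the SD is imprecise, and genes under 20 reads are limited by counting.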
